A study of Mus musculus with 14 samples.

Results

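Blood stem and progenitor cells were sorted by how much they held of a GFP label that thins out as cells divide. The genes followed through them here encode proteins of the neutrophil's secondary granules, gelatinase granules and cytoplasm. There are 8 of them, S100a8, S100a9, Ngp, Camp, Lcn2, Ltf, Mmp8 and Mmp9. A gene was read from probe sets whose platform annotation names that 1 symbol, which gave 9 probe sets for these 8 of the 18194 genes on the array. The brightest probe set by mean over the 14 arrays stood for the gene, and the second probe set of Mmp9 served as a check.

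The 14 Affymetrix arrays measured RNA from mouse bone marrow cells gated as LSK, which lack lineage markers and carry Sca1 and Kit, a gate for hematopoietic stem cells (HSCs) and for progenitors not yet bound to 1 lineage. All mice were double transgenic (huCD34-tTA and Tet-O-H2B-GFP) on a C57BL/6 background: a human CD34 promoter drives the transactivator, so that stem and progenitor cells carry a GFP-tagged histone H2B. Doxycycline at 1 mg/ml in the drinking water, begun at an age of 6 to 8 weeks and kept up for 12 weeks, stopped the labelling in every group, and the GFP then thinned out with every division. The sort gave 5 levels: GFP0, the most diluted (2 arrays), GFP1 (3 arrays), GFP2 (3 arrays), GFP3 (2 arrays) and GFP4, label-retaining (4 arrays), with about 1 to 2 divisions between neighbouring levels. The labels call the samples biological replicates without saying which animals, or how many, stand behind each one, so a p-value reflects how far these samples differ, which may be partly technical.

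Neutrophils make their granules in order as they mature. Primary granules are filled in promyelocytes, secondary (specific) granules in myelocytes and metamyelocytes, and gelatinase granules later still. Secondary granule genes are classic targets of the transcription factor C/EBP-epsilon, and they mark cells well past the stem and multipotent stage. S100a8 and S100a9 encode the 2 subunits of calprotectin, the most abundant cytosolic protein complex of neutrophils and also a product of monocytes.

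In the RefSeq gene table, a pair and a trio of the genes are neighbours. S100a8 and S100a9 are adjacent on chromosome 3, with 0 other protein-coding genes starting between them. Camp, Ngp and Ltf lie in the same part of chromosome 9 but are not adjacent. Between Camp and Ngp 8 protein-coding genes start, between Ngp and Ltf 20, and between Camp and Ltf 29. RefSeq (GRCm38.p6) held promoter sequence for 7 of the 8 genes. The 250 bases before the start of 3 of them are shown, because Ltf was the member called below, S100a8 the one with the highest SD between arrays of the same level, and Ngp the one with the most motif matches. Capitals mark matches to TTNNGNAA, a loose form of the C/EBP recognition sequence, searched on both strands. The sequences read in the sense of the gene and cover, for Ltf, chr9:111019042-111019291 (plus strand), for Ngp chr9:110419558-110419807 (plus strand) and for S100a8 chr3:90668821-90669070 (plus strand).
Ltf: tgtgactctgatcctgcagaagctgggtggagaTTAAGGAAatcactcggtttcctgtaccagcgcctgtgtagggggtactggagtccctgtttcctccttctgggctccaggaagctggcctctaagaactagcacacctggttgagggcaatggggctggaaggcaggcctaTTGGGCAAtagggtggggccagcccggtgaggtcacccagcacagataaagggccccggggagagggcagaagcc
Ngp: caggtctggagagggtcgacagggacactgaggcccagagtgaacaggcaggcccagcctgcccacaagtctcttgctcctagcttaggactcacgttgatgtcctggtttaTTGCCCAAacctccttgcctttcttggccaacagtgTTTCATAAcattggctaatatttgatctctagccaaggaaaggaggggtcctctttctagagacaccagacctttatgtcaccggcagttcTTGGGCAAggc
S100a8: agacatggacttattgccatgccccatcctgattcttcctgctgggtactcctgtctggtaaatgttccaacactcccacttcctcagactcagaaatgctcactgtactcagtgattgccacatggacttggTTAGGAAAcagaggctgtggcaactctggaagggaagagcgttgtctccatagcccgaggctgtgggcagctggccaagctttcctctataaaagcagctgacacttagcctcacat
The motif was found in 6 of the 7 promoters, with no match for Camp, and in 36.8% of 32851 promoters of the same length in the table. Ngp and Ltf share the match TTGGGCAA, which starts 11 bases before the gene in Ngp and 75 bases before it in Ltf. A match is a description of the letters and no evidence of binding.

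All values are RMA log2 expression, so a difference of 1 is a doubling of signal. Signals of different probe sets are not comparable, and the files carry no detection calls. Over the 14 arrays S100a8 lay between 7.16 and 14.21, a range of 7.05, which is a 132-fold difference in signal. Ranges were also wide for Lcn2 (7.23), Ngp (7.01), S100a9 (6.63), Camp (6.37) and Ltf (4.96), and narrower for Mmp8 (2.49) and Mmp9 (2.05). In all 8 genes the highest array was GFP0 replicate 1. The lowest was GFP3 replicate 2 for S100a8, Camp and Lcn2, GFP1 replicate 3 for S100a9 and Ltf, and GFP2 replicate 3 for Ngp, Mmp8 and Mmp9. Values of Mmp9 lay under the median of the whole table (7.03) in 12 of 14 arrays, those of Mmp8 in 9, those of Lcn2 in 7 and those of Ltf in 4, so that differences of these genes rest in part on dim signal.

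**Figure D1:**
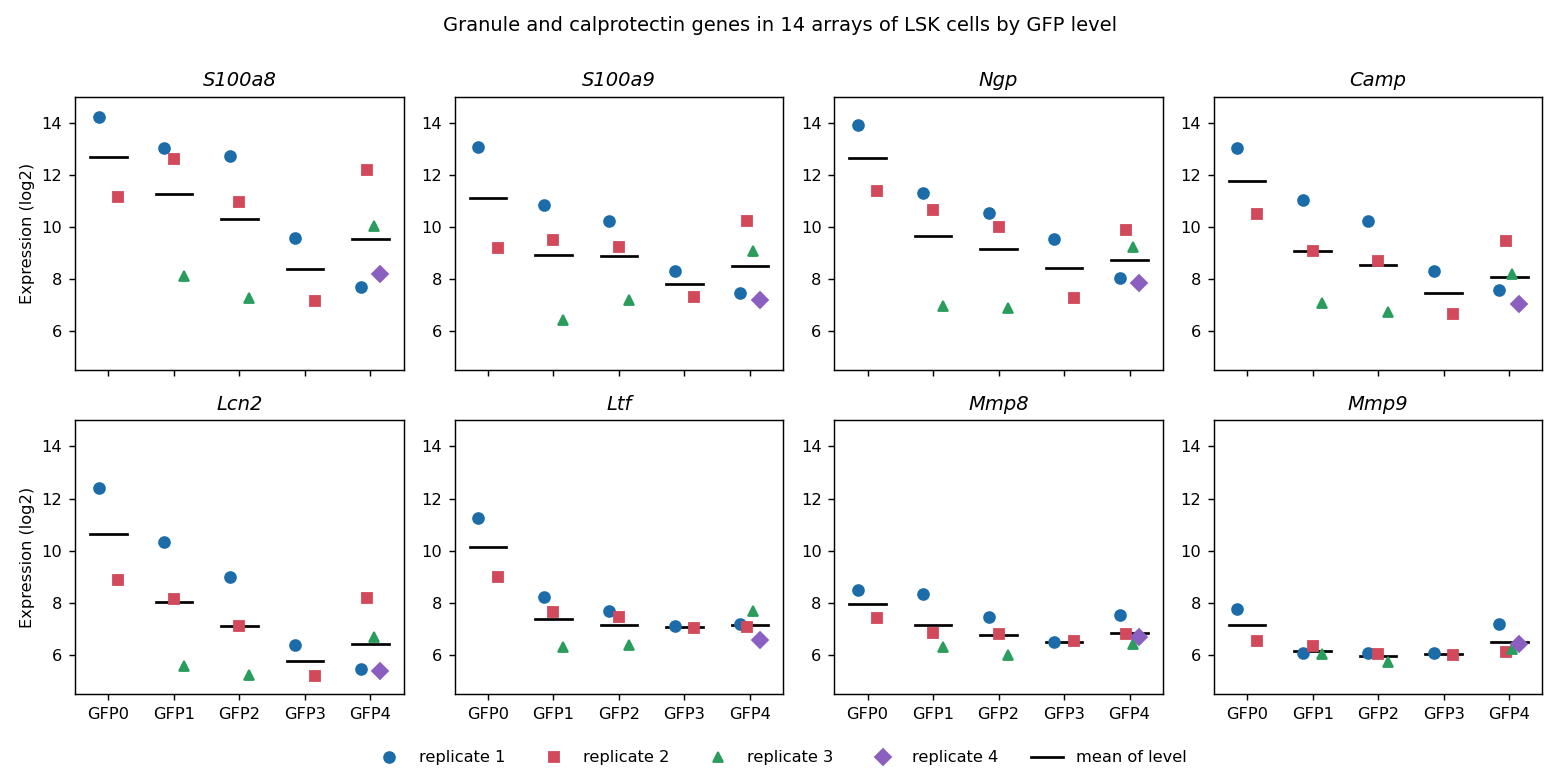
Log2 expression of the 8 genes (one panel each) in the 14 arrays, by GFP level from GFP0 to GFP4; points are arrays, with symbol and colour giving the replicate number, and bars are level means. GFP0 replicate 1 is the highest array in every panel, and arrays of the same level lie up to 5.43 apart (S100a8 in GFP2).

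Arrays of the same level lay far apart for the calprotectin subunits. S100a8 had 14.21 and 11.16 in the GFP0 arrays, 13.03, 12.60 and 8.13 in GFP1, 12.70, 10.97 and 7.27 in GFP2, 9.58 and 7.16 in GFP3, and 7.68, 12.19, 10.03 and 8.17 in GFP4. High and low arrays occurred at GFP1, GFP2 and GFP4 alike, and GFP4 replicate 2 lay above GFP0 replicate 2. S100a9 had 13.07 and 9.17 in GFP0, 10.85, 9.50 and 6.44 in GFP1, 10.23, 9.24 and 7.18 in GFP2, 8.29 and 7.32 in GFP3, and 7.45, 10.24, 9.09 and 7.17 in GFP4. Its GFP4 and GFP0 arrays overlapped as well. The mean of S100a8 was 9.52 ± 2.05 in the GFP4 arrays (SD, n = 4) and 12.68 ± 2.15 in the GFP0 arrays (SD, n = 2). The difference, -3.17 ± 1.71 (moderated SE), did not pass (limma, adjusted p = 0.434). The difference of S100a9 was -2.63 ± 1.31 (SE) and did not pass either (adjusted p = 0.381).

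Of the antimicrobial proteins, Ngp encodes neutrophilic granule protein, a relative of the cathelicidins. Ngp had 13.90 and 11.37 in GFP0, 11.29, 10.65 and 6.98 in GFP1, 10.54, 9.98 and 6.88 in GFP2, 9.55 and 7.26 in GFP3, and 8.02, 9.90, 9.23 and 7.83 in GFP4. All 4 GFP4 arrays lay below both GFP0 arrays, while GFP1 and GFP2 spanned more than the whole of GFP4. Camp, the cathelicidin itself, had 13.01 and 10.49 in GFP0, 11.03, 9.08 and 7.07 in GFP1, 10.22, 8.69 and 6.75 in GFP2, 8.30 and 6.64 in GFP3, and 7.57, 9.46, 8.21 and 7.05 in GFP4. Camp thus showed the same order of high and low arrays as Ngp in GFP0 to GFP3, with GFP4 again below GFP0. The difference between GFP4 and GFP0 was -3.89 ± 1.26 (SE, adjusted p = 0.154) for Ngp and -3.68 ± 1.13 (SE, adjusted p = 0.128) for Camp, and neither passed.

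The iron-handling proteins were Lcn2, which binds bacterial siderophores, and Ltf, lactoferrin, which binds iron. Lcn2 had 12.41 and 8.85 in GFP0, 10.32, 8.14 and 5.58 in GFP1, 9.0, 7.11 and 5.21 in GFP2, 6.37 and 5.18 in GFP3, and 5.47, 8.19, 6.67 and 5.36 in GFP4. The GFP4 arrays were all below the GFP0 arrays, and its difference of -4.21 ± 1.34 (SE) had the greatest size of the 8, yet it did not pass (adjusted p = 0.144). Ltf had 11.25 and 8.99 in GFP0, 8.21, 7.63 and 6.29 in GFP1, 7.66, 7.46 and 6.36 in GFP2, 7.10 and 7.02 in GFP3, and 7.19, 7.09, 7.68 and 6.55 in GFP4. Both GFP0 arrays lay above all 12 arrays of the other levels, which overlapped among themselves. The mean of Ltf was 7.13 ± 0.46 in the GFP4 arrays (SD, n = 4) and 10.12 ± 1.60 in the GFP0 arrays (SD, n = 2), and it fell by 2.99 on the log2 scale (SE 0.61, adjusted p = 0.0304).

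The matrix metalloproteinases were Mmp8, the collagenase of secondary granules, and Mmp9, the gelatinase of the granules that form last. Mmp8 lay between 6.42 and 7.54 in GFP4 and between 7.43 and 8.50 in GFP0, with an overlap of the groups (difference -1.11 ± 0.53, SE, adjusted p = 0.362). Mmp9 lay between 6.10 and 7.17 in GFP4 and between 6.55 and 7.77 in GFP0, again with an overlap (difference -0.68 ± 0.33, SE, adjusted p = 0.369). The second Mmp9 probe set gave a difference of -0.09 ± 0.22 (SE) and also did not pass (adjusted p = 0.889, over all probe sets with 1 symbol).

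In GFP4 against GFP0, the comparison of label-retaining with most diluted cells, all 8 estimates were thus below 0, as were those of 54.6% of all genes, and 1 member passed after adjustment. Among all 18194 genes 1.68% passed, and 0.429% passed in the downward direction. The median difference of the 8 was -3.08, beside a median of -0.04 over all genes. The arrays did not overlap for 4 of the 8 (Ngp, Camp, Lcn2 and Ltf), all lower in GFP4, as 7.75% of all genes did, while 18.1% of all genes had no overlap in either direction. At an unadjusted p under 0.05 there were 4 members, the same ones, against 5.99% of all genes with that p and a lower value in GFP4. The call on Ltf was lost without GFP0 replicate 1 (difference -1.87, adjusted p = 0.268) and without GFP4 replicate 4 (difference -2.80, adjusted p = 0.0777). It was also lost for Ltf with array quality weights (adjusted p = 0.351) and with the GFP0 and GFP4 arrays alone (adjusted p = 0.0860). With the replicate number as a block in limma the difference of Ltf was -2.55 and did not pass (adjusted p = 0.113). The labels do not say what a replicate number stands for. Without GFP0 replicate 1 the median of the 8 was -1.76, and without GFP0 replicate 2 it was -4.63.

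**Figure D2:**
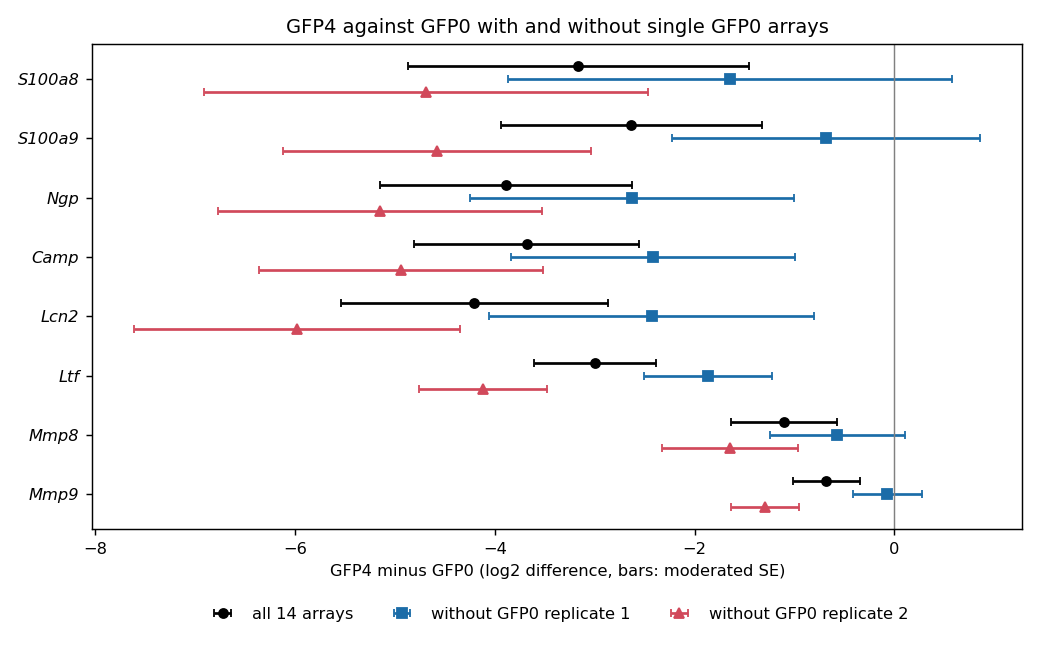
Difference between GFP4 and GFP0 (log2, with the moderated SE) for each of the 8 genes, from all 14 arrays and after leaving out either GFP0 array. All differences stay below 0, and those of Mmp9 (-0.07) and Mmp8 (-0.57) come nearest to 0 without GFP0 replicate 1.

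Across the 5 levels, the slope contrast asks for a rise or fall with the GFP level. S100a8, S100a9, Ngp, Camp, Lcn2 and Ltf shared an order of level means, with GFP0 highest, then GFP1, GFP2, GFP4 and GFP3. For Mmp8 the order was GFP0, GFP1, GFP4, GFP2 and GFP3, and for Mmp9 it was GFP0, GFP4, GFP1, GFP3 and GFP2. Lcn2 averaged 10.63, 8.01, 7.11, 5.77 and 6.42 from GFP0 to GFP4, with SDs of 2.51, 2.37, 1.89, 0.84 and 1.32 (n = 2, 3, 3, 2 and 4). Its slope of -1.07 ± 0.30 per level (SE) was the steepest of the 8 and did not pass (adjusted p = 0.0776), nor did that of Camp (-0.90 ± 0.25, SE, adjusted p = 0.0782). Slopes of the other members that did not pass were -0.92 for S100a8 (adjusted p = 0.246), -0.90 for Ngp (adjusted p = 0.113), -0.64 for S100a9 (adjusted p = 0.299), -0.29 for Mmp8 (adjusted p = 0.248) and -0.15 for Mmp9 (adjusted p = 0.353).

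Ltf passed the slope contrast at -0.63 ± 0.14 per level (SE, adjusted p = 0.0286). Its means were 10.12 in GFP0 but 7.37, 7.16, 7.06 and 7.13 in GFP1, GFP2, GFP3 and GFP4, so the slope reflects a gap between GFP0 and the rest rather than a steady fall. Over all genes 3.35% passed the slope contrast, and 1.07% passed downwards. The median slope was -0.77 for the 8 members and -0.01 for all genes. Without GFP0 replicate 1 the slope of Ltf was -0.40 (adjusted p = 0.202), and without GFP3 replicate 1, GFP3 replicate 2 or GFP4 replicate 4 the adjusted p was 0.0547, 0.0854 or 0.0659. Calls were gained without GFP1 replicate 3 (Ngp, Camp and Lcn2, at adjusted p values of 0.0348, 0.036 and 0.034) and without GFP4 replicate 2 (Camp and Lcn2, at 0.0499 and 0.0463).

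None of the 8 passed the F test for any difference between the levels, which 0.698% of all genes did. The smallest adjusted p was that of Ltf (0.131), and 4 members (Camp, Lcn2, Ltf and Mmp9) had an unadjusted p under 0.05, as did 2331 of the 18194 genes. Mmp9 is read here from its brighter probe set alone. No member passed at a single step between neighbouring levels, and neither did any other gene (0% of genes at each step in limma). At the step from GFP0 to GFP1 an unadjusted p under 0.05 was found for 4 members and 1969 genes. There the differences, GFP1 minus GFP0, were -2.75 ± 0.64 (SE) for Ltf, -2.69 ± 1.19 (SE) for Camp, -2.99 ± 1.33 (SE) for Ngp and -1.01 ± 0.35 (SE) for Mmp9. The second Mmp9 probe set gave only -0.20 ± 0.23 (SE) at this step (limma, unadjusted p = 0.402). None of the 8 had an unadjusted p under 0.05 at the other 3 steps. From GFP3 to GFP4 all 8 estimates lay above 0, between 0.07 (Ltf) and 1.15 (S100a8), beside a median of 0.05 over all genes. The median gene thus also lay above 0. The 8 members vary together (median r of 0.84 over the arrays), so they are not 8 separate observations. Levels that neighbour each other in the order of means but not in GFP number, such as GFP2 and GFP4, were not compared.

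The spread between arrays of the same level set these genes apart from most of the array. The SD within levels was 2.36 for S100a8, the second highest of 18194 genes, where the median gene had 0.31. Lcn2 (1.85, rank 12), S100a9 (1.81, rank 14), Ngp (1.74, rank 15) and Camp (1.55, rank 26) followed. Ltf (0.82, rank 284) and Mmp8 (0.72, rank 554) lay lower, and Mmp9 (0.42, rank 4759) was nearer to the bulk of genes. Differences between level means held 32.3% of the variance over the arrays for S100a8 and 30.6% for S100a9, under the 36.5% of the median gene. The share was 71.0% for Ltf, the highest of the 8, and 50.6% for Lcn2. The wide SEs of the calprotectin and cathelicidin genes in the tests above come from this spread.

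**Figure D3:**
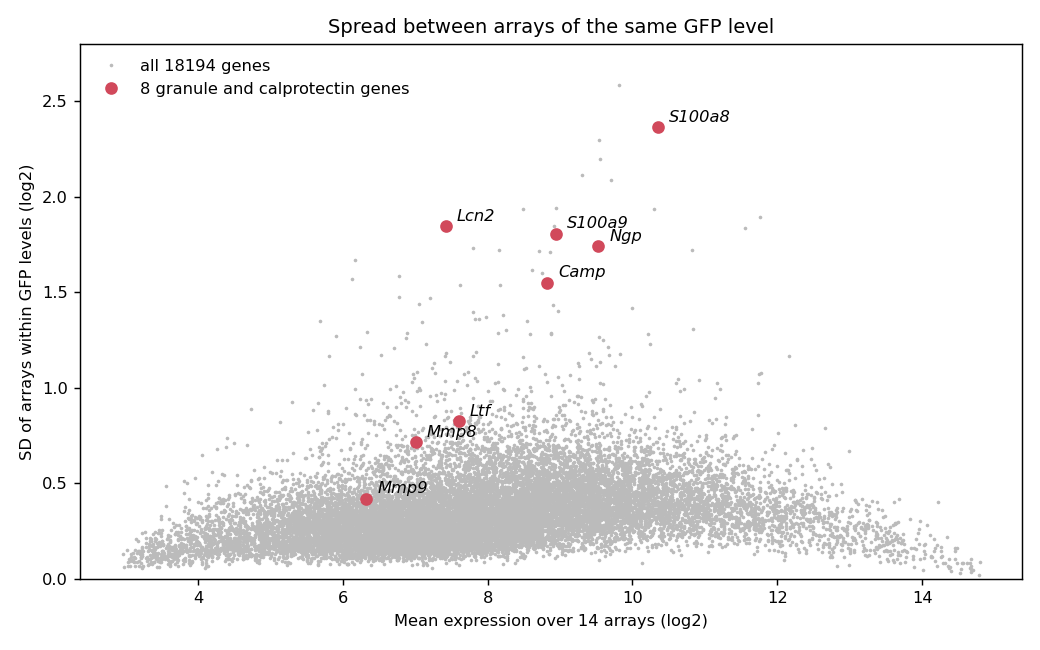
SD of arrays within GFP levels against mean expression over the 14 arrays (both log2), 1 grey point for each of 18194 genes and red points for the 8 members. S100a8 has an SD of 2.36, and 4 further members (Lcn2, S100a9, Ngp and Camp) lie above 1.5, against a median of 0.31.

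The members varied together. Over the 14 arrays, which share their level means, the 28 pairs of genes had Pearson r between 0.32 and 0.99 (median 0.84). After the level means were subtracted, r was between 0.14 and 0.99 (median 0.80), so the genes also varied together among arrays of the same level. Camp and Lcn2, on different chromosomes, had r = 0.99 before and 0.99 after that subtraction, and the neighbours S100a8 and S100a9 had 0.94 and 0.95. Mmp9 was the least alike, with r of 0.32 to S100a8, 0.47 to S100a9 and 0.74 to Ltf. These values describe 14 arrays and are given with no p.

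**Figure D4:**
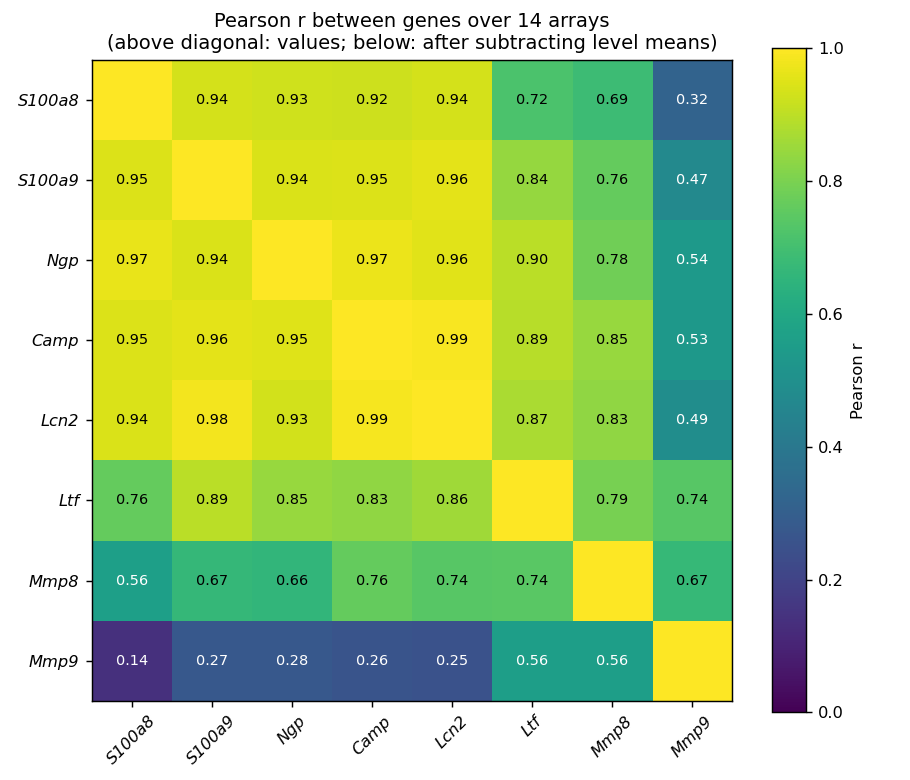
Pearson r between the 8 genes over 14 arrays, from the values themselves above the diagonal and after subtracting level means below it. S100a8, S100a9, Ngp, Camp and Lcn2 form a block with r of 0.92 or more above the diagonal, and the values of Mmp9 with S100a8 are 0.32 above it and 0.14 below it.

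Among 11033 other genes whose mean reached the table median and whose probe set does not end in _x_at, the 8 most like the mean standardised value of the members over the 14 arrays had r between 0.89 and 0.93. In order they were Gm16982, Saa3 (an acute-phase serum amyloid), Adgre1 (a macrophage surface receptor), Fcgr4 (an Fc receptor of neutrophils and monocytes), Ifitm6, Rxrg, Ly6d and Tmem119. Ifitm6 had the widest range of these 8 over the arrays, 6.74 to 10.94. Gm16982, the first in order, had the narrowest, 7.49 to 8.02. None of these 8 passed the slope contrast, where the smallest adjusted p was that of Ly6d (0.0869).

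Other genes of neutrophil granules and surfaces give the setting. Of 16 other specific and gelatinase granule genes none passed in GFP4 against GFP0 (median difference -0.70), with an estimate below 0 for 15, and none passed the slope contrast. The list mean was 7.36 ± 0.59 in GFP4 arrays (SD, n = 4), against 8.33 ± 0.65 in GFP0 arrays (SD, n = 2). Chil3, a chitinase-like protein of mouse neutrophils and macrophages, had values between 6.10 (GFP3 replicate 2) and 13.57 (GFP1 replicate 1), with a difference between GFP4 and GFP0 of -3.94 ± 1.87 (SE, adjusted p = 0.354). Of 14 genes of the neutrophil surface and of inflammation 1 passed, Clec4d, a C-type lectin receptor of myeloid cells, and the list median was -0.63. Clec4d was at 6.99 ± 0.75 in GFP4 arrays (SD, n = 4), against 11.04 ± 0.04 in GFP0 arrays (SD, n = 2) (difference -4.05 ± 0.46, SE, adjusted p = 0.00181). Its GFP0 arrays lay close together, at 11.01 and 11.07, and its call held without any single array but not with array quality weights (adjusted p = 0.0971).

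Of 8 genes listed with the primary granules 7 did not pass in GFP4 against GFP0. The 1 that passed, Serpinb1a, encodes an inhibitor of neutrophil serine proteases and none of the granule's enzymes (difference -1.99 ± 0.38, SE, adjusted p = 0.0216). Its call was lost without GFP0 replicate 1 (difference -2.13), GFP0 replicate 2 (difference -1.855) or GFP4 replicate 4 (adjusted p = 0.0511). Mpo, the myeloperoxidase of primary granules, was at 9.99 ± 2.32 in GFP4 arrays (SD, n = 4), against 12.80 ± 1.15 in GFP0 arrays (SD, n = 2), and did not pass (adjusted p = 0.353). The list mean of the primary granule genes was 10.5 in GFP4 and 12.1 in GFP0, with its highest level mean in GFP1 (12.5), whereas that of the 8 members was highest in GFP0. None of 8 granulocyte transcription factors passed, with a median difference of 0.18. Gfi1, a repressor needed for neutrophil differentiation, was at 9.70 ± 0.41 in GFP4 arrays (SD, n = 4), against 8.26 ± 0.17 in GFP0 arrays (SD, n = 2) (difference 1.44 ± 0.43, SE, adjusted p = 0.124). Cebpe and Ly6g were not analysed here.

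Relatives and receptors of the secreted proteins were measured as well. None of 9 other S100 genes (median difference 0.02) and none of 7 other metalloproteinases and inhibitors (median 0.17) passed in either contrast. Of 9 receptors and co-receptors 1 passed in both contrasts, Slc22a17, a receptor for Lcn2, which was at 9.85 ± 0.18 in GFP4 arrays (SD, n = 4), against 8.83 ± 0.09 in GFP0 arrays (SD, n = 2) (difference 1.02 ± 0.23, SE, adjusted p = 0.0477). Leaving out any of 11 single arrays ended that call. Tlr4, through which calprotectin signals, was at 8.03 ± 0.49 in GFP4 arrays (SD, n = 4), against 7.53 ± 0.43 in GFP0 arrays (SD, n = 2), and did not pass (adjusted p = 0.462).

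Kit, which the sort selects for, lay between 8.05 and 9.91 in the 14 arrays. Itgam, a surface marker that lineage depletion usually removes, lay between 4.92 and 5.60. The T cell surface markers Cd3e, Cd4 and Cd8a lay at 7.10 to 7.89, 8.08 to 8.78 and 6.99 to 8.74. Signals of different probe sets are not comparable, so these values do not show how much RNA of mature cells was present. Sca1 (Ly6a) was not analysed here. Mean levels of marker lists of other cells also moved with the members. The 9 monocyte and macrophage markers (0 passed in either contrast) ranged from 8.33 to 9.91 in GFP4 and from 9.61 to 9.85 in GFP0, and the list mean had r = 0.78 with the members' mean standardised value over the 14 arrays. The 8 B and plasma cell markers (1 lower in GFP4, Vpreb1, and 2 lower by slope) ranged from 7.55 to 8.47 in GFP4 and from 8.85 to 10.2 in GFP0. The 8 T and NK cell markers (1 lower by slope, Nkg7) ranged from 6.91 to 7.47 in GFP4 and from 7.76 to 8.68 in GFP0. The 7 eosinophil, basophil and mast cell markers (3 lower by slope, Cpa3, Ms4a2 and Fcer1a) ranged from 5.92 to 7.61 in GFP4 and from 8.25 to 8.54 in GFP0, and the 5 erythroblast markers (0 passed) from 6.29 to 6.59 in GFP4 and from 6.45 to 6.77 in GFP0. Leaving out GFP0 replicate 1 ended each of these calls. Leaving out GFP0 replicate 2 ended those of Ighm, the other B cell gene lower by slope, and of Nkg7, Cpa3, Ms4a2 and Fcer1a. The slope calls of these genes and of Vpreb1 were also lost without GFP3 replicate 2 and with array quality weights. Without GFP0 replicate 1 the slope was -0.85 for Nkg7 (-0.81 with all arrays) and -0.98 for Cpa3 (-0.92). It was -1.095 for Ms4a2 (-0.929) and -0.69 for Fcer1a (-0.63), all steeper. Those of Vpreb1 (-0.53 against -0.80) and Ighm (-0.83 against -0.87) were flatter. The Ighm slopes are those of the brightest of its 11 probe sets. With the mean over its probe sets the slope was -0.26 and did not pass (limma, adjusted p = 0.105). None of these markers can be placed at 0 on a log2 scale without detection calls. Their part in the result was not tested, and in bulk RNA fewer cells of a type and less RNA per cell cannot be told apart.

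Array properties moved with the members too. GFP0 replicate 1, the highest array for all 8 genes, had the narrowest interquartile range of the 14 (2.09, the widest being 2.73), and over the arrays that range had r = -0.68 with the members' mean standardised value and -0.61 after level means were subtracted. For Actb, the excess of the 3 prime over the 5 prime probe set, which tracks RNA integrity, had r = -0.22 with it and -0.62 within levels, and for Gapdh the values were -0.58 and -0.37. With such 3 prime excess for Actb and for Gapdh as covariates, Ltf still passed in GFP4 against GFP0 (-2.88) but not by slope (adjusted p = 0.0721). Of the 8 LSK and HSC genes 3 were higher in GFP4 (Procr, Meis1 and Hlf) and 1 was lower (Cd48). Leaving out either GFP0 array ended each of these 4 calls. That of Meis1 was near the threshold (adjusted p = 0.0433). It was also lost without any single GFP4 array and with the mean over its probe sets (adjusted p = 0.0632). The same 4 genes passed by slope, at 0.78 for Procr (adjusted p = 0.00314), 0.65 for Hlf (adjusted p = 0.00341), 0.40 for Meis1 (adjusted p = 0.0141) and -1.07 for Cd48 (adjusted p = 0.00286). The slope call of Meis1 was lost without GFP0 replicate 1, and leaving out any other single array ended none. Array quality weights ended those of Procr and Meis1. For GFP4 against GFP0 the estimates were above 0 for 6 of the 8. The list mean was 10.1 ± 0.17 in GFP4 arrays (SD, n = 4), against 9.55 ± 0.01 in GFP0 arrays (SD, n = 2). It was 9.93 in GFP1, highest in GFP2 (10.37) and 10.25 in GFP3, so it did not rise steadily with the level. The list mean had r = -0.80 with the members over the arrays and -0.69 after level means were subtracted.

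**Figure D5:**
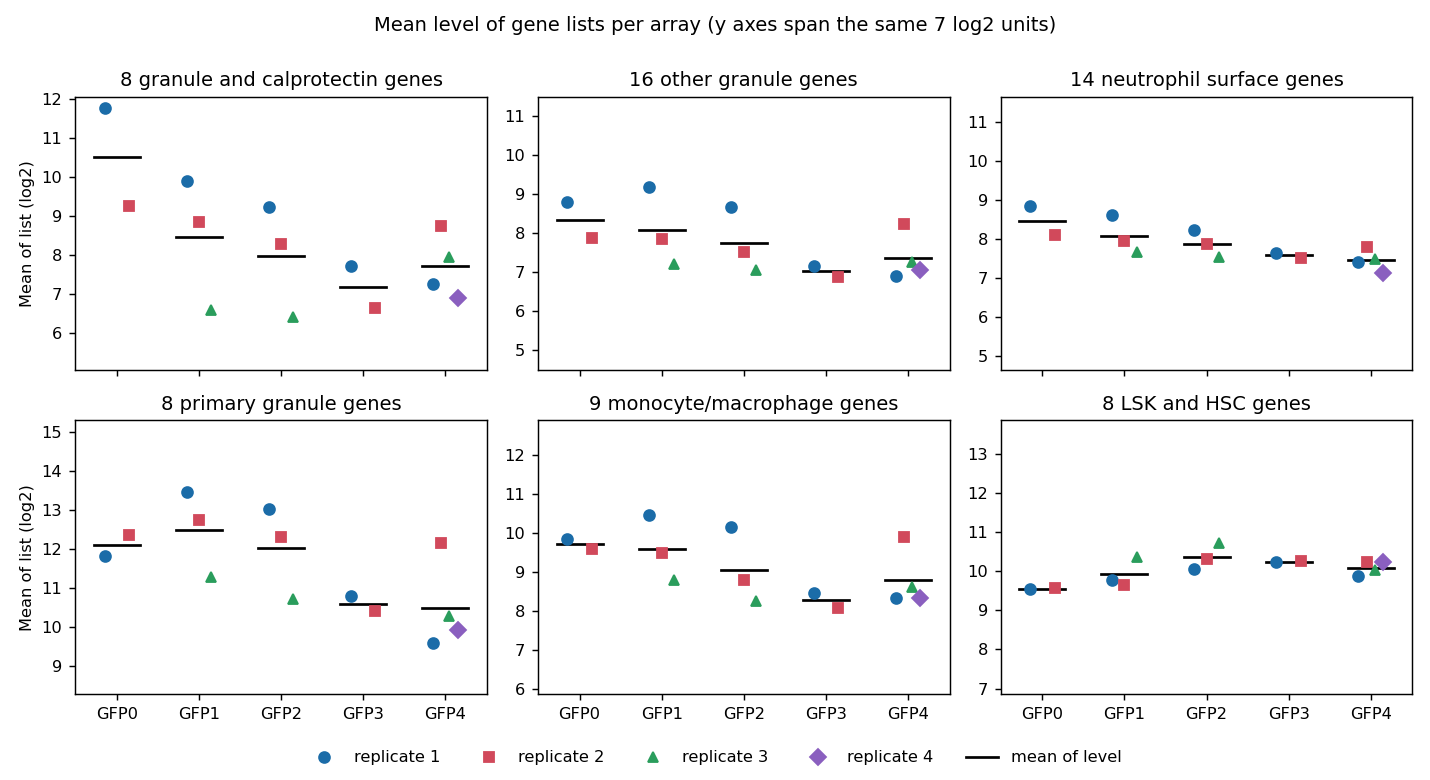
Mean log2 level per array of the 8 members and of 5 comparison lists, by GFP level, with points as arrays, symbols and colours as replicate numbers and bars as level means; all y axes span 7 log2 units. In GFP4 the highest array of the members, of the other granule genes, of the neutrophil surface genes, of the primary granule genes and of the monocyte and macrophage genes is replicate 2.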

How the data were processed

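Amplified, biotin-labelled RNA of 14 sorted LSK samples was put on 1 array each (per the labels' protocols). The tools GCOS, RMA and affy appear, without versions, in the submitters' processing notes. The deposited values are log2 expression of 45101 probe sets, between 2.69 and 15.1. RMA corrects background, normalizes quantiles and summarizes probes. Genome build: not given in the sources used here. Array medians lay between 6.96 and 7.18. Of the probe sets 34958 named 1 symbol, 932 several and 9211 none; 34754 matched RefSeq by gene identifier. The brightest probe set per symbol gave 18194 genes.

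With limma 3.58.1 (R 4.3.3), group means were fitted to all 14 arrays with empirical Bayes (9 residual and 3.99 prior degrees of freedom). Tests were two-sided and Benjamini-Hochberg adjusted over all genes, with a threshold of 0.05. Named were the 8 members, up to 4 called genes per list, a few genes by name, and the 8 genes most correlated with the members. The fit was tested on simulated data. Members and lists were chosen with earlier results of these data known. Alternatives covered scaling, dim genes, probe sets, variance model, array weights, replicate block, left-out arrays and RNA quality. Figures: matplotlib 3.10.9.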

Additional observations from a re-analysis of the deposited data

Results flagged for a closer look

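Each of 25 named genes was examined for an array of GFP4, the only level with at least 4 arrays, that stood far from the others; chance alone marks about 5% of such groups. None of the 8 granule and calprotectin genes was marked. Elane, the neutrophil elastase of primary granules, was 11.17 in GFP4 replicate 2 and between 6.97 and 7.48 in the other GFP4 arrays. Cpa3, a mast cell carboxypeptidase, was 9.77 in GFP4 replicate 2 and between 6.38 and 6.67 in the others. That array was also the highest GFP4 array for 5 of the 8 members.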

How the results depend on the processing

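For GFP4 against GFP0 and for the slope, the estimates of the 8 members stayed below 0 under every alternative run. Of these values, 394 stayed on their side of the threshold, 17 (all Ltf) lost the call and 5 (Ngp, Camp and Lcn2, by slope) gained one. For GFP4 against GFP0 306 genes and 1 member passed. With array quality weights 2 genes and 0 members passed, with the replicate block 67 and 0, with the GFP0 and GFP4 arrays alone 58 and 0, without both arrays numbered 1 of GFP0 and GFP4 41 and 0, without these and GFP4 replicate 2 112 and 0, and with 3 prime to 5 prime covariates 142 genes. Leaving out 1 array gave 51 to 363 genes and 0 to 1 member. For the slope 609 genes and 1 member passed. Here array quality weights gave 90 and 0, the replicate block 337 and 0, the covariates 165 and 0, the same left-out arrays 156 and 0, then 269 and 0, and a regression on the level 0 members. Leaving out 1 array gave 182 to 768 genes and 0 to 4 members. For any difference between levels 127 genes passed, against 38 with arrays centred on their medians, 335 with array quality weights, 34 with the replicate block, 11 with covariates, 20 and 38 with the left-out arrays, and 28 to 158 without single arrays. No member passed that test or any single step under an alternative. The cause of these shifts was not tested.

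Ltf with the replicate block fell by 2.55 in GFP4 against GFP0 (adjusted p = 0.113), with a slope of -0.57 (adjusted p = 0.0583). Over all genes, deviations from level means of arrays with the same number correlated between -0.26 and 0.58, and those of arrays with different numbers between -0.63 and 0.48. Not every same-numbered pair correlated above 0, and the labels do not say what a number stands for, so the block was kept as an alternative. The count of arrays sets the precision, and low values carry no detection calls.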

Other observations

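Replicate numbers and the members' levels ran together at GFP0 to GFP3, although the labels do not say that a number marks a shared animal or day. The array numbered 1 was the highest of its level for 8 of 8 members in GFP0, 7 of 8 in GFP1, 8 of 8 in GFP2 and 7 of 8 in GFP3. The array numbered 3 was the lowest for all 8 in GFP1 and in GFP2. In GFP4 the highest array was replicate 2 for 5 members, and the lowest was replicate 4 for 5. Hp, the haptoglobin gene, which is no member, was 12.26 in GFP2 replicate 1 and 7.09 in GFP2 replicate 3. Padi4, an enzyme that citrullinates histones in neutrophils, had the only estimate above 0 among the 14 surface and inflammatory genes, at 8.95 ± 0.42 in GFP4 arrays (SD, n = 4), against 7.41 ± 0.20 in GFP0 arrays (SD, n = 2), and did not pass (adjusted p = 0.0656).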
